A study of Rattus norvegicus with 9 samples.

Results

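Of the 41078 transcripts in the table, 8 were present in every control library and in every library given erastin with PQR NPs, yet silent or nearly silent in every library given erastin alone. They were chosen by their measured levels: under 0.3 CPM (counts per 1000000 counts of the library) in each erastin library, and 1 CPM or more in each of the other 6. All 3 groups were PC12 cells, a neuron-like line grown from a rat pheochromocytoma, a tumour of the chromaffin cells. Their genotype was labelled wild type, and the groups were untreated, given Erastin, or given Erastin+PQR NPs, a nanodelivery system, with 3 libraries in each. Poly(A) RNA was sequenced as paired ends, and neither doses nor times are given in the sources used here. The labels do not say if replicates were grown as separate cultures; p-values here reflect the spread between libraries alone, which may be technical.

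Erastin blocks the antiporter that brings cystine into the cell in exchange for glutamate. Cystine feeds the synthesis of glutathione, which the lipid peroxidase Gpx4 uses to repair oxidised membrane lipids, and its loss can start ferroptosis, an iron-dependent form of cell death. A gene can give several transcripts through its promoters, splice sites and poly(A) sites, and each row of this table is 1 such transcript. Silent here thus means that few or no counts were assigned to a row, and how reads were divided among transcripts is not given. The level of the gene as a whole is not shown either, since the table does not say which rows belong to 1 gene.

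The IDs were not paired with gene names: 0 of the 41078 matched the RefSeq gene table of the GRCr8 assembly. Genes, positions, functions and sequences of the 8 are therefore not given here, and neither the 5 pathway lists nor the 6 marker lists, those of the PC12 identity among them, could be read. The transcripts are called by rank, from the highest mean CPM over control and co-treated libraries (rank 1) to the lowest (rank 8). Library totals ran from 34772755 to 40826754 counts. A count of 0 allows up to 3 counts, or 0.0735 to 0.0863 CPM by library, for counting error only.

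Where they were present, the 8 were low to middling in abundance. Rank 1 had a mean of 14.2 CPM and rank 2 of 13.4 CPM over the control and co-treated libraries, close to 13.9 CPM, the median of the 17123 transcripts tested. Ranks 3 to 8 lay between 1.74 CPM at rank 8 and 3.99 CPM at rank 3. Summed over the 8, the control libraries held 59.4, 38.2 and 39.4 CPM, the erastin libraries 0.726, 0.772 and 0.834 CPM, and the co-treated libraries 33.6, 40.95 and 57.2 CPM. The uneven sums of the first and the last group came largely from rank 2. Without it the sum was 31.4 ± 3.06 CPM in controls, 0.749 ± 0.0226 CPM with erastin and 31.3 ± 2.01 CPM under co-treatment (SD, n = 3 each).

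**Figure D1:**
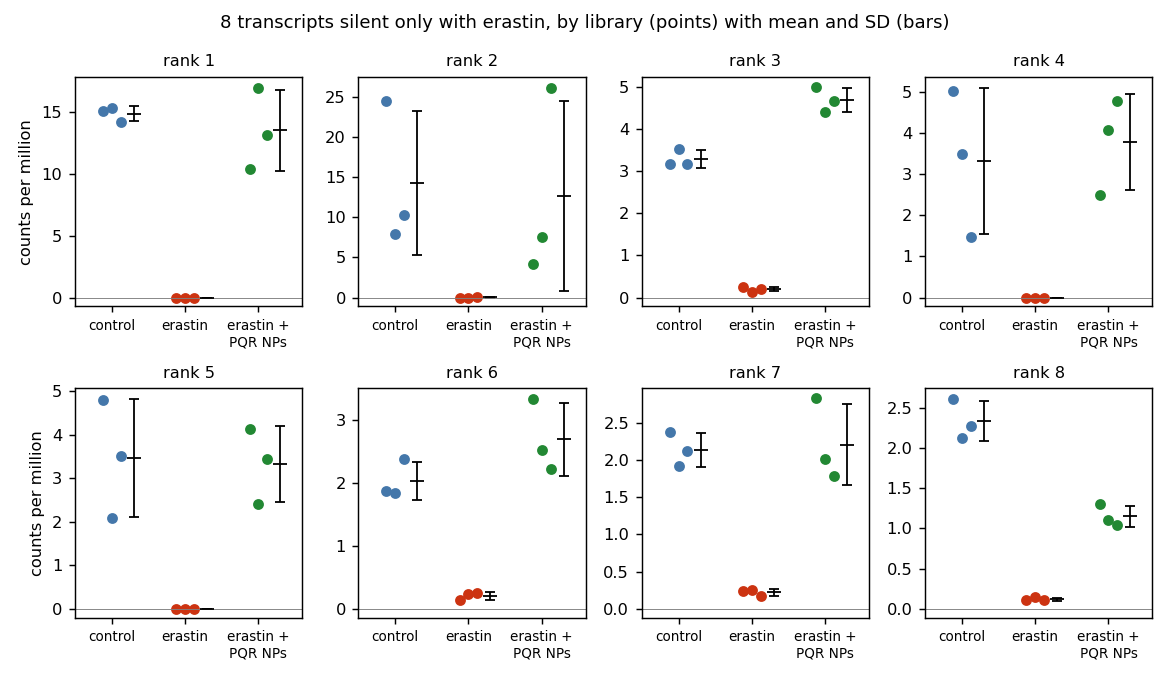
Level of each of the 8 transcripts in CPM (vertical axes, linear, each panel on its own scale) in the 3 libraries of each group, drawn from left to right by replicate number, with the group mean and SD as a bar. Every erastin point lies at or near 0, and the control and co-treated points of rank 2 run from 4.17 to 26.2.

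The label of a silent transcript fitted the 8 unevenly. With erastin, ranks 1, 4 and 5 had no count in any library, and rank 2 had counts of 0, 0 and 3. Ranks 3, 6, 7 and 8 kept between 4 and 9 counts in every erastin library. In all, 11 of the 24 values with erastin were 0 and the highest was 9 counts, while the lowest of the 48 other values was 41 counts. The folds over erastin given below use the same values that chose the 8, so large folds follow from the rule. Their intervals and their ranges without 1 library are not corrected for that choice and only describe the 8.

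Rank 1, ENSRNOT00000083528, had 564, 599 and 540 counts in the control libraries, none in the erastin libraries and 408, 691 and 515 counts under co-treatment. Its controls were the most even of all 8, and its co-treated libraries lay on both sides of them. The mean went from 14.8 ± 0.612 CPM in controls to 0 with erastin and back to 13.5 ± 3.28 CPM (SD, n = 3 each). With a floor of 3 counts per library, the level was at least 176-fold higher in controls and at least 160-fold higher under co-treatment than with erastin. With 1 library left out, these bounds ran from 172 to 180 and from 140 to 178.

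Rank 4 had 188, 136 and 56 counts in controls, none with erastin and 98, 166 and 187 counts under co-treatment. Its control libraries differed 3.42-fold from lowest to highest. It was at least 39.4-fold higher in controls (3.32 ± 1.78 CPM, SD, n = 3) and at least 44.8-fold higher under co-treatment (3.78 ± 1.16 CPM) than with erastin. Rank 5 had 180, 82 and 134 counts in controls, none with erastin and 162, 98 and 135 counts under co-treatment. The control and co-treated libraries of both overlapped. For rank 5 the bounds were 41.2-fold in controls (3.47 ± 1.35 CPM, SD, n = 3) and 39.4-fold under co-treatment (3.32 ± 0.868 CPM). For these low transcripts the bound depends on the depth of the erastin libraries and on the mean where they were present. With 1 library left out, the bounds of rank 4 ran from 29.3 to 50.4 for controls and from 38.9 to 52.4 for co-treated libraries. Those of rank 5 ran from 33.3 to 49.3 and from 34.7 to 44.9.

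Rank 2, ENSRNOT00000083702, had 921, 310 and 394 counts in controls, 0, 0 and 3 counts with erastin and 164, 307 and 1026 counts under co-treatment. The highest library of each present group held 3.10 times (control) and 6.27 times (co-treated) the CPM of the lowest. Its mean was 14.3 ± 8.99 CPM in controls and 12.6 ± 11.8 CPM under co-treatment (SD, n = 3). Against the 3 counts left with erastin, controls were 496-fold higher, with an exact 95% counting interval of 172 to 2448, and co-treated libraries 439-fold higher (153 to 2171). These intervals cover counting error only. The size of both folds depended on single libraries, by a comparison chosen after seeing the data. The control fold was 317 without control replicate 1, and the co-treated fold was 203 without co-treated replicate 3, which left a co-treated mean of 5.85 CPM. All 3 erastin counts came from erastin replicate 3. Without it the remaining erastin libraries were at 0, and the folds become bounds against 3 counts per library, at least 171-fold for controls and at least 152-fold for co-treated libraries.

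The other four fell by a smaller factor and to a measurable level. Rank 3 had 119, 138 and 121 counts in controls, 9, 5 and 7 with erastin and 196, 180 and 183 under co-treatment. All 3 co-treated libraries were above all 3 controls. Co-treated and control libraries did not overlap for 38.4% of all transcripts tested. Its level with erastin was 0.195 ± 0.0499 CPM (SD, n = 3), from which controls were 16.8-fold higher (95% counting interval 10.8 to 27.4) and co-treated libraries 23.98-fold higher (15.5 to 38.8).

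Rank 6 had 70, 72 and 91 counts in controls, 5, 8 and 9 with erastin and 131, 103 and 87 under co-treatment. Rank 7 had 89, 75 and 81 counts in controls, 9, 9 and 6 with erastin and 111, 82 and 70 under co-treatment. For both, the control and co-treated libraries overlapped. Controls were 9.79-fold (6.36 to 16.0) higher than erastin at rank 6, at 2.03 ± 0.306 against 0.207 ± 0.0648 CPM (SD, n = 3). At rank 7 they were 9.54-fold (6.24 to 15.1) higher, at 2.14 ± 0.228 against 0.224 ± 0.0452 CPM. Under co-treatment rank 6 was 13.0-fold (8.49 to 21.2) and rank 7 9.85-fold (6.46 to 15.6) above its erastin level.

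Rank 8, ENSRNOT00000024393, had 98, 83 and 87 counts in controls, 4, 5 and 4 with erastin and 51, 45 and 41 under co-treatment. Here the 3 groups were separate, with the co-treated libraries between those of the other groups. The rule itself set the erastin libraries apart, and 38.4% of all transcripts tested had no overlap between co-treated and control libraries. Controls were 19.2-fold (11.0 to 36.5) and co-treated libraries 9.43-fold (5.34 to 18.2) higher than with erastin. This ID is given because the transcript is the only one called in the comparison of co-treatment with control, a choice made after its values were seen.

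**Figure D2:**
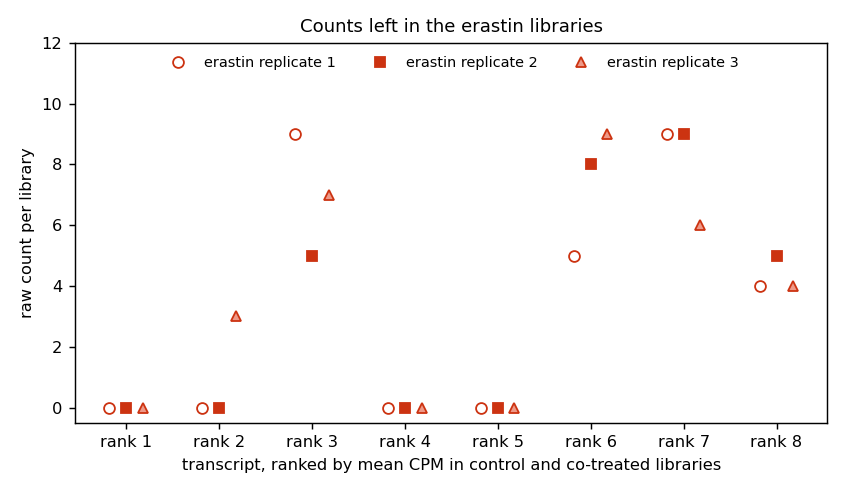
Raw counts (vertical axis) of the 8 transcripts in each of the 3 erastin libraries, by rank (horizontal axis), with a symbol for each library. Ranks 1, 4 and 5 lie at 0 in all 3, rank 2 has 3 counts in 1 library, and ranks 3, 6, 7 and 8 have 4 to 9 counts in every library.

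All 8 were called lower with erastin than in controls by edgeR's quasi-likelihood test at an adjusted p of 0.05, where 26.3% of all transcripts tested were called lower. All 8 were also called higher under co-treatment than with erastin, against 25.3% of those tested. Both counts follow from the way the transcripts were chosen and are no finding about them.

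The spread between libraries where the transcripts were present was wide at ranks 2, 4 and 5 and narrower at ranks 3 and 8. It is given as the coefficient of variation (CV) over the 3 libraries of a group, beside the CV that counting error alone would give. At ranks 2, 4 and 5 the control CV was 63.0%, 53.6% and 39.0%, against 4.30%, 8.89% and 8.70% from counting. Under co-treatment it was 93.9%, 30.8% and 26.1%, against 4.48%, 8.16% and 8.71%. Rank 1 was even in controls (4.13% against 4.20%) and less so under co-treatment (24.4% against 4.31%).

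Among the transcripts with a residue, the control CV lay near counting error: 6.26% against 8.91% at rank 3, 15.1% against 11.3% at rank 6, 10.7% against 11.1% at rank 7 and 10.7% against 10.6% at rank 8. Under co-treatment ranks 3 and 8 stayed near it as well, with 6.19% against 7.33% and 11.5% against 14.8%. Ranks 6 and 7 were above it there, with 21.4% against 9.67% and 24.8% against 10.7%. Over all tested transcripts the median CV was 14.7% in controls and 12.2% under co-treatment. With 3 libraries a CV is itself imprecise, and the difference between both kinds of transcript was not tested.

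**Figure D3:**
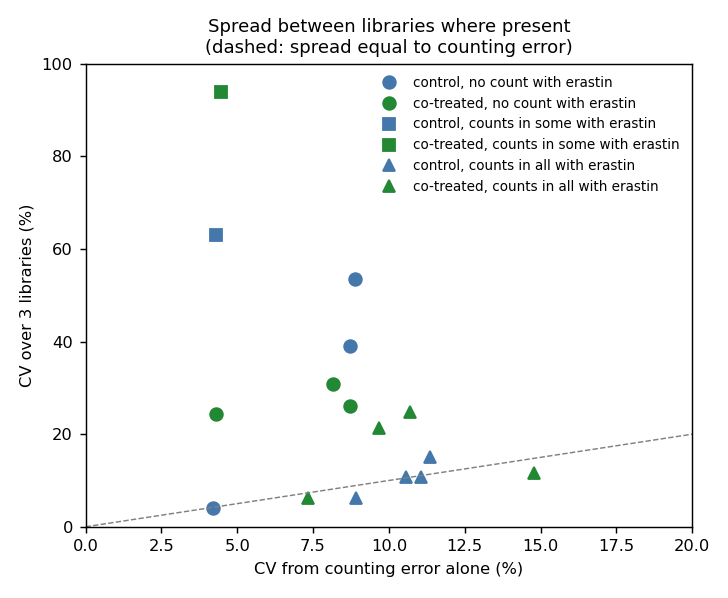
CV over the 3 libraries of a group (vertical axis, %) against the CV expected from counting error alone (horizontal axis, %), for control (blue) and co-treated (green) libraries of the 8 transcripts. Circles are transcripts with no erastin count, squares rank 2 and triangles those with counts in every erastin library; the triangles in blue lie near the dashed line of equality, and the squares lie at 63.0% and 93.9%.

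Erastin plus PQR NPs against control asks whether the co-treated cells held these transcripts at the untreated level. The rule set the same minimum in both groups and did not use their difference, but a transcript that stayed below 1 CPM under co-treatment could not be a member, so a return of the 8 is no result by itself. Of the 8, 4 had a higher and 4 a lower mean CPM under co-treatment than in controls. The ratios of the means ran from 0.492 at rank 8 to 1.43 at rank 3, and the median was 0.995. In edgeR's fit the median log2 fold change was -0.07 over the 8 and -0.03 over all 17123 transcripts tested.

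Rank 8 was the only transcript of the 8 called in this comparison, where 16.9% of all transcripts were called and 9.21% called lower. It went from 2.34 ± 0.251 CPM in controls to 1.15 ± 0.133 CPM under co-treatment (SD, n = 3 each). The log2 fold change was -1.09 ± 0.24 (SE), or 0.471 of the control level with a 95% interval of 0.321 to 0.689, and the edgeR adjusted p was 0.0189. All 3 co-treated libraries lay below all 3 controls, and 38.4% of all transcripts tested had no overlap here, in either direction. The call was lost when any of 5 single libraries was left out: the edgeR adjusted p became 0.0553 or 0.0562 when control replicate 1 or 3 was dropped, and 0.0511, 0.0759 or 0.0803 when co-treated replicate 1, 2 or 3 was dropped. Over all 15 alternatives the adjusted p ran from 0.0118, given by DESeq2, to 0.0803 by edgeR, and the lowest edgeR value among them was 0.0205, with the stricter filter on low counts. The transcript was lower in each of them. At 1.05 CPM its lowest co-treated library was also the nearest of the 8 to the limit of 1 CPM, below which it would not have been a member.

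No transcript of the 8 was called higher after adjustment in this comparison, by edgeR or by DESeq2. Rank 3 came nearest, at 3.29 ± 0.206 CPM in controls and 4.69 ± 0.290 CPM under co-treatment (SD, n = 3). Its log2 fold change was 0.45 ± 0.21 (SE), with an edgeR adjusted p of 0.196, and 0.107 to 0.322 over the 15 alternatives, DESeq2 included. Unadjusted, its p was 0.0678 by edgeR over all 9 libraries and 0.0470 by DESeq2, and it was under 0.05 in 5 of the 15 alternatives, DESeq2 among them. Its co-treated and control libraries did not overlap, as was the case for 2 of the 8 and for 38.4% of all transcripts tested.

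Ranks 1, 2, 4, 5, 6 and 7 were not called, and the 95% intervals of their fold changes were wide. Rank 1 was at 0.874 of control (0.608 to 1.25; edgeR adjusted p 0.610) and rank 7 at 0.986 (0.651 to 1.49; edgeR adjusted p 0.973). Rank 6 was at 1.27 times control (0.797 to 2.02; edgeR adjusted p 0.484). The intervals of ranks 4 and 5 reached from under 0.5 to over 1.7 times the control level (0.468 to 2.56 and 0.486 to 1.73). The interval of rank 2 was 0.241 to 3.06. All 6 intervals include 1, so the direction is undetermined for each of these transcripts, and they do not show that the levels were alike. The fitted change of rank 2 turned from lower to higher without control replicate 1 or co-treated replicate 1 or 2. That of rank 4 turned from higher to lower without control replicate 3 or co-treated replicate 3. That of rank 5 turned from lower to higher without control replicate 1 or co-treated replicate 2. That of rank 7 was lower over all 9 libraries and higher in 10 of the 15 alternatives.

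**Figure D4:**
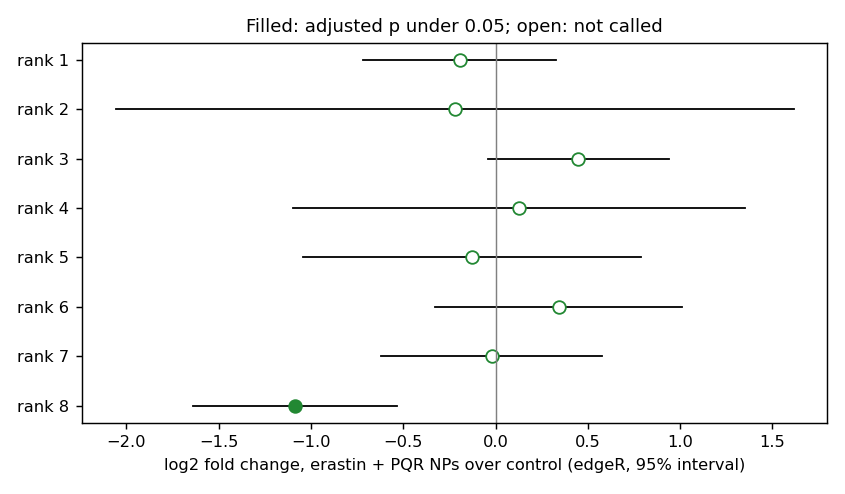
Fitted log2 fold change of erastin plus PQR NPs over control (horizontal axis) for the 8 transcripts by rank (vertical axis), with the 95% interval from edgeR as a line. Rank 8, at -1.09, is the only filled point (adjusted p under 0.05), and the other seven intervals include 0.

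The 8 were few beside the transcripts that could have met the rule. Among 12705 transcripts at 1 CPM or more in every control and co-treated library, 12301 (96.8%) stayed at 1 CPM or more in all 3 erastin libraries and 8 (0.0630%) were under 0.3 CPM in all 3. Another 96 (0.756%) were mixed, at 1 CPM or more in some erastin libraries and under 0.3 CPM in others, and 300 (2.36%) lay between. The same count made for the other groups gave smaller numbers of silent transcripts. Silent in control alone were 5 of 12592 (0.0397%), with 73 mixed, and silent under co-treatment alone 2 of 12501 (0.0160%), with 64 mixed. These numbers were not tested against each other. In each group the mixed transcripts, which changed state between libraries given the same treatment, outnumbered the silent ones many times over, and their part in the 8 was not tested.

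The rule's mirror image, 1 CPM or more in each erastin library and under 0.3 CPM in the other 6, held for 37 transcripts, 10 of them with no count in any of those 6. That rule asks for silence in 6 libraries where the first asks for it in 3, so both counts are set side by side only.

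Transcripts that met part of the rule show what the condition on each group removed. In controls at 1 CPM or more and with erastin under 0.3 CPM were 21 transcripts. Under co-treatment 8 of these were at 1 CPM or more in all 3 libraries and are the ones described here, 1 was under 0.3 CPM in all 3, 2 were mixed and 10 lay between. The 13 others had a median ratio of 0.518 of co-treated to control level, from 0.0122 to 0.817, and 5 of them were under 0.5. The ratio was below 1 in all 13, a direction favoured by the choice, since only the limit on the co-treated libraries kept them out.

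From the other side, 18 transcripts were at 1 CPM or more in each co-treated library and under 0.3 CPM with erastin. In controls the same 8 were at 1 CPM or more throughout, 0 were under 0.3 CPM in all 3, 5 were mixed and 5 lay between. The 10 others had a median ratio of control to co-treated level of 0.600, from 0.235 to 3.04. A ratio below 1 was again favoured by the choice, since only the limit on the control libraries kept them out. The largest ratio belonged to a transcript with 0 CPM in 1 control library and 27.5 CPM in another.

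A further 33 transcripts missed the rule in exactly 1 library, 24 of them in an erastin library, 5 in a control library and 4 in a co-treated one. The 24 were divided over the erastin libraries, with 6, 10 and 8 in replicates 1, 2 and 3. In 14 of them the level in the library that failed was between 0.3 and 1 CPM, in 10 it was 1 CPM or more, and in 6 of those 10 CPM or more, up to 44.98 CPM. Without erastin replicate 1, 2 or 3 the rule would thus have taken in 14, 18 or 16 transcripts.

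Closest to the limits, the highest erastin values among the 8 were 0.259 CPM at rank 6, 0.257 CPM at rank 7 and 0.242 CPM at rank 3, and the next transcripts outside stood at 0.316, 0.345 and 0.345 CPM. The lowest values in the other libraries were 1.05 CPM at rank 8, 1.47 CPM at rank 4 and 1.78 CPM at rank 7, with 0.955, 0.931 and 0.882 CPM next outside. Ranks 3, 6 and 7, with 5 to 9 counts per erastin library, were thus members by a margin of a few counts.

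**Figure D5:**
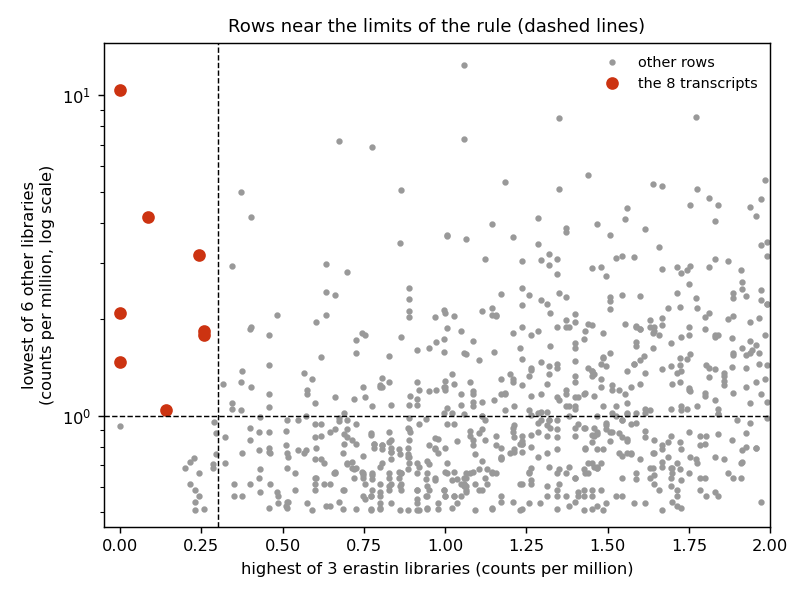
Highest CPM over the 3 erastin libraries (horizontal axis) against the lowest CPM over the 6 control and co-treated libraries (vertical axis, log scale) for transcripts under 2 CPM on the first and at 0.5 CPM or more on the second; dashed lines mark the limits of 0.3 and 1 CPM. The 8 transcripts (red) fill the upper left corner, 4 of them under 0.1 CPM with erastin and 4 between 0.1 and 0.3 CPM, where grey points begin to the right at 0.316.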

How the data were processed

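Counts per Ensembl rat transcript were compared in 9 libraries of PC12 cells, 3 in each group. The authors deposited raw counts in whole numbers, 1 column per library. HISAT2 2.2.1 and the build Rnor 6.0 are named, per the submitters' processing notes. For the counting program, its use of strand and its handling of reads that fit several transcripts: not given in the sources used here. Counts of overlapping, antisense or near-identical transcripts are therefore uncertain.

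CPM were taken on column totals. Members and lists were chosen with earlier results of these data known, and the IDs of ranks 1 and 2 are given as those of the highest mean CPM over control and co-treated libraries. All 17123 transcripts passing edgeR's filter, the 8 members among them, were fitted over the 9 libraries with edgeR 4.0.16 (limma 3.58.1, R 4.3.3; quasi-likelihood test, TMM scaling, Benjamini-Hochberg adjustment, threshold 0.05); DESeq2 1.42.0 was an alternative. Intervals of fold changes use the fit's degrees of freedom. Counting intervals of ratios were exact (Clopper-Pearson, 95%) on summed counts. Folds against a group at 0 use 3 counts per library. The fit and the rule were run on simulated data as a check of the code. The simulated spread was the same for every transcript, so this check does not cover transcripts of wide spread such as rank 2. With no molecular identifiers named, counting intervals and floors cover counting error only.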

Additional observations from a re-analysis of the deposited data

How the results depend on the processing

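The count of 8 moved with the limits of the rule. It was 3 with no erastin count allowed, 4 under 0.1 CPM with erastin and 25 under 0.5 CPM. It was 24 at 0.5 CPM or more in the other groups, 4 at 2 CPM or more, and 8 to 18 without 1 library. Wider limits or 1 library fewer can only add transcripts, so all 8 first ones were bound to stay. With CPM on TMM-adjusted totals the same 8 were found. All 8 were called lower with erastin and higher under co-treatment than with erastin in every alternative and with each library left out. Of all transcripts tested, 17.7% to 29.5% were called lower and 18.1% to 30.7% higher in these comparisons. Both results follow from the rule, which chose the transcripts by these same differences, and are no test of how stable the pattern is. Against control, 0 to 1 transcripts were called under co-treatment without 1 library, and 1 in every other alternative. The median log2 ratio of co-treated to control level was -0.0076; it was -0.0994 at 2 CPM or more and ran from -0.1107 to 0.2983 without 1 library, so its sign is undetermined.

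The fitted change of ENSRNOT00000083702 between co-treatment and control turned to higher without control replicate 1 and without co-treated replicates 1 or 2 (edgeR adjusted p 0.807, 0.897 and 0.989 there; 0.338 to 0.989 over all 15 alternatives, DESeq2 included). Same-numbered libraries of different groups deviated together only weakly, if at all: r ran from -0.0126 to 0.111 over 9 pairs, across transcripts, and 1 was over 0.1. For pairs with different numbers r ran from -0.108 to 0.0757, and the difference was not tested. With the replicate number as a replicate block, the same counts of 8, 8 and 1 members were called, beside 25.8%, 24.5% and 15.9% of all transcripts tested. The first and second of these counts follow from the rule. In that fit ENSRNOT00000024393 had an edgeR adjusted p of 0.0424. On the erastin side 9 counts were the most that any member had, since the limit of 0.3 CPM allows only few counts at this depth.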
